A study of Homo sapiens with 6 samples.

Results

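The SMADs are the proteins that carry TGFβ and BMP signals from the cell surface to the nucleus. Total RNA was measured for 10 genes of this group, namely SMAD1, SMAD2, SMAD3, SMAD4, SMAD6, SMAD7, SMURF1, SMURF2, SKI and SKIL. They were chosen by name, as SMADs and their known negative regulators, with earlier results of these arrays known. Each was read from the probe set that carried only its symbol, and where a gene had several such probe sets, from the brightest over all 6 arrays. All 10 had such a probe set, out of 18417 genes measured this way.

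Human mammary epithelial cells of 2 kinds were hybridized to Affymetrix HuGene-1_0-st-v1 arrays, with 3 arrays for MCF10A left untransfected and 3 for MCF10A-SNAI1. The line MCF10A comes from breast epithelium and is immortalized but not tumorigenic. The control cells were an ATCC stock received from a colleague. No source used here says whether MCF10A-SNAI1 was made from that same stock. MCF10A-SNAI1 cells had received a plasmid for Flag-tagged SNAI1 under a CMV enhancer and chicken beta-actin promoter and were selected with puromycin in another laboratory, and no source used here says whether the line is 1 clone. Both lines were grown in the same mammary medium with cholera toxin, and the control carried no empty plasmid, so the plasmid, the selection and the history of the line cannot be told apart from SNAI1 itself. The deposited values are log2 values, and a difference of 1 is a factor of 2. Differences are given as MCF10A-SNAI1 minus MCF10A. They were tested with limma, with Benjamini-Hochberg adjustment of p over the whole table of 33297 probe sets. Called genes are those whose adjusted p was below 0.01 and whose difference exceeded 2-fold. The submitters call the 3 arrays of a line biological replicates, and the article speaks of transcriptomes that were reproduced independently. Neither says how the cultures were separated, and the p-values measure the spread between these arrays.

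SNAI1 read 5.80, 5.73 and 5.77 on the MCF10A arrays and 10.50, 10.53 and 10.50 on the MCF10A-SNAI1 arrays (log2 fold change 4.75), higher in the line labelled as carrying the plasmid. Array medians lay between 6.04 and 6.09. Of 7 epithelial markers, 5 were measured and 4 were called lower in MCF10A-SNAI1 cells, among them CDH1, the E-cadherin gene, at a log2 fold change of -3.97. KRT14, EPCAM and KRT5 were at -4.76, -3.70 and -2.23, and EPCAM was at -4.30 by the mean of its probe sets. The fifth, KRT18, was lower by less than 2-fold. Of 4 mesenchymal markers, CDH2, ZEB1 and FN1 were called higher, and vimentin, VIM, was at 11.62 in MCF10A and 11.67 in MCF10A-SNAI1 cells. The SMAD genes were thus compared between cells that also differed in epithelial markers, and the part of that shift in the values below was not tested. In RNA of whole cultures, fewer cells of a type and less RNA per cell cannot be told apart.

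A TGFβ or BMP ligand brings together type I and type II receptor kinases, which phosphorylate receptor-regulated SMADs. SMAD2 and SMAD3 serve the TGFβ and activin branch and SMAD1 serves the BMP branch. The phosphorylated SMADs bind SMAD4, the shared partner, enter the nucleus and act on genes together with other factors. The pathway is held in check by inhibitory SMADs (SMAD6 and SMAD7), by the ubiquitin ligases SMURF1 and SMURF2, which mark SMADs and receptors for degradation, and by the nuclear corepressors SKI and SKIL, which bind SMAD complexes. SMAD7 and SKIL are themselves known as target genes of TGFβ, and TGFβ signaling is a classical inducer of EMT in mammary epithelium.

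Promoter sequence was looked up for the members from RefSeq on GRCh38.p14, which held 20 start sites for 9 of the 10 genes and none for SKI. The build of the array design is not named in the sources used here, so genes were matched by symbol only. In each case the 250 bases before the start site were searched on both strands for CAGGTG, an E-box that SNAI1 binds and that is a special case of the general E-box CANNTG, and for GTCTAGAC, a palindrome that SMAD3 and SMAD4 bind. The windows of both SMURF genes are shown because these were the lower members with an adjusted p below 0.01, and that of SMAD6 because it alone among the members held the palindrome. The SMURF2 window (chr17:64662308-64662557, minus strand) held 1 CAGGTG, in capitals, which begins 245 bases before the start site. The SMURF1 window (chr7:99144109-99144358, minus strand) held no E-box of either form. In the SMAD6 window (chr15:66701986-66702235, plus strand) the capitals mark GTCTAGAC, which begins 12 bases before the start site.
SMURF2: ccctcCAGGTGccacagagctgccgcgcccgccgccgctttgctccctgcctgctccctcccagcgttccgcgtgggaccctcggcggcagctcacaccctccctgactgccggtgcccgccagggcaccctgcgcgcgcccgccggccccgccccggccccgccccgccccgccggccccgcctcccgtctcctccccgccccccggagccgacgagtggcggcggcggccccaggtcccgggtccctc
SMURF1: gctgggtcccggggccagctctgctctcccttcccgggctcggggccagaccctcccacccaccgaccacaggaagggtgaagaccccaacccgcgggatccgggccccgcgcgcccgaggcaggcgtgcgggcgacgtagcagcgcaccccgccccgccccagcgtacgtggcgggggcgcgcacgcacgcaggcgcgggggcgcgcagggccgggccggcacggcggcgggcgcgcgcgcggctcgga
SMAD6: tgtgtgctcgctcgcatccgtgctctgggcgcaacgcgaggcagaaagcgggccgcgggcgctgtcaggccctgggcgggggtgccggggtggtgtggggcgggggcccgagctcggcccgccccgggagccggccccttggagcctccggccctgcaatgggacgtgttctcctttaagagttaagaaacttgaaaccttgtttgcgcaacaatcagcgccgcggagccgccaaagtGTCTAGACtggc

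CAGGTG was present in 3 of the 20 member windows, or 15%, against 17.5% of all 35116 promoter windows of the same length. The other windows with it belonged to 1 of the 5 start sites of SMAD3 and 1 of the 3 of SMAD7. GTCTAGAC was rare, in 0.182% of all windows. The shorter SMAD motifs CAGAC and GGCGCC were also searched and are not marked in the sequences. Each was in 7 of the 20 member windows, against 38% and 16.4% of all windows. The SMURF1 window held 1 CAGAC, and the SMAD6 window held neither. Windows with GGCGCC belonged to SMAD1, SMAD2, SMAD3, SMAD4 and SKIL. SMAD1 and SMAD2 each had more than 1 such window, and those of SMAD2 overlap, so the 7 are not independent. Their share of G and C ran from 62.8% to 84.4%, and the comparison with all windows was not matched for it. The windows of SMURF2 and SMURF1 were rich in G and C, at 82% and 81.2%. These are matches of letters and no measurement of binding was made.

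SMURF2 was the member that differed most between the lines. It read 10.50, 10.60 and 10.51 on the MCF10A arrays and 9.07, 9.02 and 9.14 on the MCF10A-SNAI1 arrays. The lowest MCF10A array lay far above the highest MCF10A-SNAI1 array, and within a line the arrays differed little. SMURF2 fell 2.75-fold, a log2 fold change of -1.46 with a standard error of 0.065 (limma, adjusted p = 9.55e-06). The 95% interval of the difference ran from -1.61 to -1.31, so all of it lay beyond 2-fold. Of all genes measured, 2.81% had a larger difference in either direction. With any 1 array left out, the difference lay between -1.49 and -1.43. SMURF2 is one of the genes that the study singled out on these arrays, so its call is not independent evidence. The article also reports SMURF2 as lower in MCF10A-SNAI1 cells by quantitative PCR. The names table also holds a transcribed SMURF2 pseudogene locus, and whether the SMURF2 probes match it is unknown from the sources used here.

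SMURF1, the close relative of SMURF2 first known for acting on the BMP SMADs, was also lower, but by less. It read 8.26, 8.29 and 8.26 in MCF10A and 7.44, 7.72 and 7.62 in MCF10A-SNAI1 cells. The groups did not overlap, and the MCF10A-SNAI1 arrays were more spread out than the controls. SMURF1 fell 1.60-fold (log2 fold change -0.68 ± 0.083, standard error; limma adjusted p = 0.00103), which is under the fold threshold. By the methods' t-test, an unpaired test for equal variances run on the same values, its adjusted p was 0.0115 and that of SMURF2 was 7.38e-04.

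**Figure D1:**
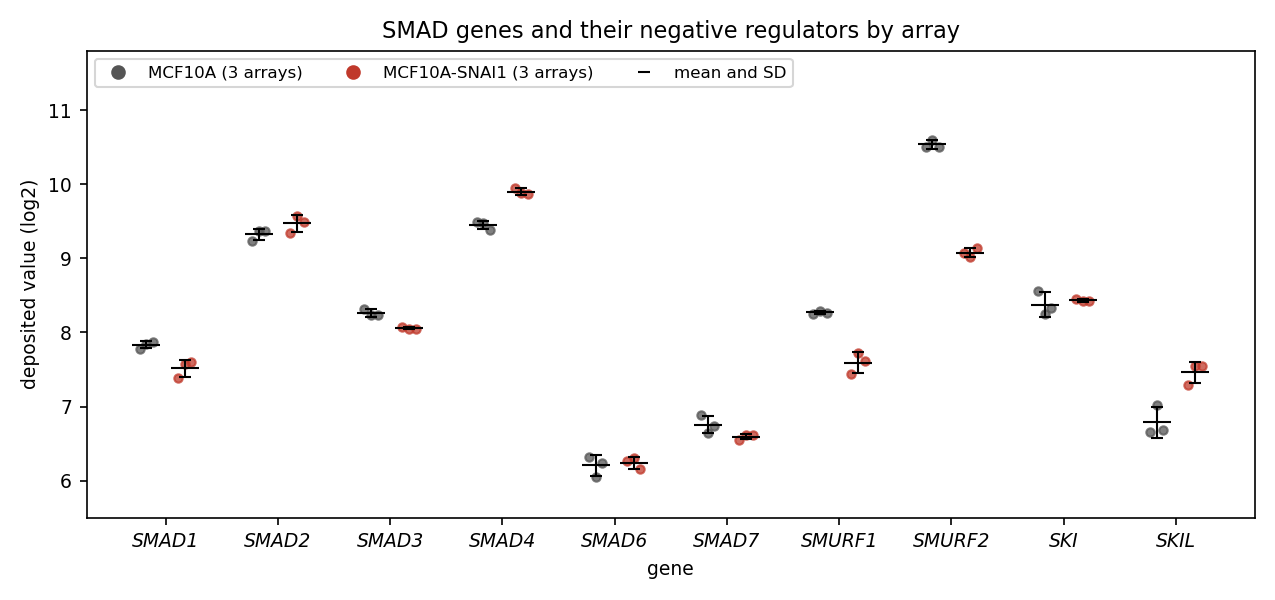
Deposited log2 values of the 10 genes (y axis) on the 3 MCF10A arrays (grey) and the 3 MCF10A-SNAI1 arrays (red), with the mean and SD of each line in black. SMURF2 lies between 10.50 and 10.60 in MCF10A and between 9.02 and 9.14 in MCF10A-SNAI1 cells, whereas the arrays of both lines overlap for SMAD2, SMAD6 and SKI. Heights of different genes come from different probes and are not to be compared.

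SMAD4 moved in the other direction. It read 9.48, 9.47 and 9.39 in MCF10A and 9.95, 9.88 and 9.87 in MCF10A-SNAI1 cells. The groups were apart, and the arrays of each line lay within a narrow range. SMAD4 rose 1.37-fold (log2 fold change 0.45 ± 0.061, standard error; limma adjusted p = 0.00169), with a 95% interval from 0.31 to 0.60 that stayed short of 2-fold. Its adjusted p was between 0.0062 and 0.00945 with any 1 array left out.

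None of the receptor-regulated SMADs passed the test. SMAD2, which carries TGFβ and activin signals, read 9.24, 9.36 and 9.37 in MCF10A and 9.34, 9.58 and 9.49 in MCF10A-SNAI1 cells, and the lines overlapped. Its log2 fold change of 0.15 (standard error 0.081, limma adjusted p = 0.287) had an interval from -0.05 to 0.34. SMAD3, its partner in the same branch, read 8.32, 8.24 and 8.23 against 8.08, 8.05 and 8.05. The SMAD3 arrays of MCF10A all lay above those of MCF10A-SNAI1 cells, but the difference of -0.20 (standard error 0.058, limma adjusted p = 0.0447) did not reach the threshold. Its interval ran from -0.34 to -0.07. SMAD1, of the BMP branch, read 7.78, 7.85 and 7.87 in MCF10A and 7.39, 7.57 and 7.60 in MCF10A-SNAI1 cells. Here too the lines did not overlap, at a log2 fold change of -0.31 (standard error 0.076, limma adjusted p = 0.0232) and an interval from -0.50 to -0.13. The intervals are for 1 gene at a time and are not adjusted over genes, so they can leave out 0 where the adjusted p misses 0.01. The other SMADs of the BMP branch are SMAD5 and SMAD9. Between the lines SMAD5 differed by 0.13 (limma adjusted p = 0.236) and SMAD9 by 0.33 (limma adjusted p = 0.0219) on the log2 scale.

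Neither inhibitory SMAD passed the test. SMAD6, which acts mainly on BMP signals, read 6.32, 6.05 and 6.25 in MCF10A and 6.27, 6.31 and 6.15 in MCF10A-SNAI1 cells, with full overlap. Its difference was 0.04, with an interval from -0.17 to 0.25 (adjusted p = 0.839 from limma). SMAD7, which blocks the TGFβ receptors and brings SMURF proteins to them, read 6.88, 6.65 and 6.74 against 6.56, 6.61 and 6.62. The lines were apart by a small gap, and the log2 fold change of -0.16 (interval from -0.34 to 0.02, adjusted p = 0.200 from limma) did not pass the test. For both genes the whole interval lay within 2-fold in either direction. Both lay less than 1 log2 unit above 6.05, the median of all values in the table, and without detection calls it is not known how much of such a signal is background.

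Of the corepressors, SKIL rose and SKI did not pass the test. SKI read 8.56, 8.24 and 8.33 in MCF10A and 8.45, 8.42 and 8.42 in MCF10A-SNAI1 cells, which overlapped, and its difference was 0.05 (interval from -0.16 to 0.27, adjusted p = 0.761 from limma). SKIL, which encodes SnoN, read 6.65, 7.02 and 6.69 in MCF10A and 7.29, 7.55 and 7.54 in MCF10A-SNAI1 cells. All MCF10A-SNAI1 arrays were higher than the highest control, replicate 2 of MCF10A. SKIL rose 1.60-fold (log2 fold change 0.67 ± 0.12, standard error; limma adjusted p = 0.00666). The adjusted p stayed below 0.01 without MCF10A replicate 2 (0.00364) or MCF10A-SNAI1 replicate 1 (0.00815). It was 0.0272 without MCF10A replicate 1, 0.0292 without MCF10A replicate 3, 0.0274 without MCF10A-SNAI1 replicate 2 and also 0.0274 without MCF10A-SNAI1 replicate 3, at differences of 0.61 to 0.64. By the methods' t-test it was 0.0489.

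**Figure D2:**
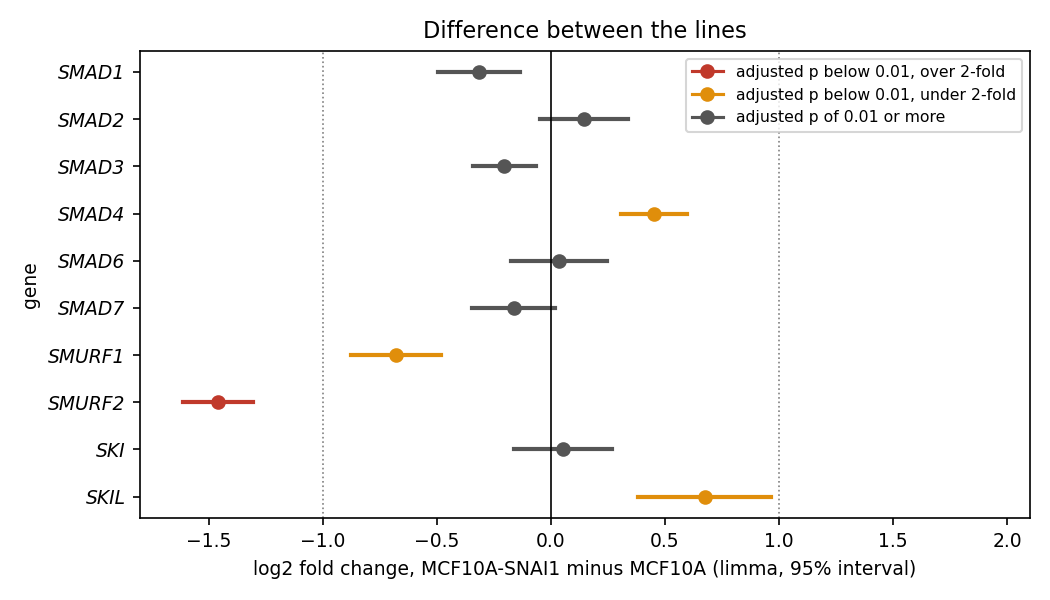
Log2 fold change of each gene, MCF10A-SNAI1 minus MCF10A, from limma (x axis), with lines for the 95% interval of 1 gene at a time and dotted lines at 2-fold. SMURF2 at -1.46 is the member beyond 2-fold, SMURF1 at -0.68, SMAD4 at 0.45 and SKIL at 0.67 have an adjusted p below 0.01, and the intervals of SMAD2, SMAD6, SMAD7 and SKI include 0.

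Counted together, 1 of the 10 genes was called, against 5.64% of all genes, and it was lower, as were 2.54% of all genes. At an adjusted p below 0.01 and any fold there were 4 of 10, SMURF2 and SMURF1 lower and SMAD4 and SKIL higher, against 23.2% of all genes (12.1% higher and 11.2% lower). The ranges of the arrays did not overlap for 7 of 10 genes, against 48.3% of all genes. All 10 genes had a mean above the median of all values, and of the 11251 genes above it 7.61% were called, 33.4% had an adjusted p below 0.01 and 64.3% did not overlap. The shares of the members lay near these backgrounds, so the counts are not a result about the group as a whole. The median log2 fold change of the members was -0.06, and that of all genes was -0.01.

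Differences between related genes were also read within each array, where a log2 shift shared by all values of the array drops out. An effect that differs with signal level would not drop out. The SMURF2 value exceeded that of SMURF1 by 2.25, 2.30 and 2.25 on the MCF10A arrays and by 1.63, 1.30 and 1.52 on the MCF10A-SNAI1 arrays. The groups were apart, and SMURF2 fell by 0.78 more than SMURF1 on the log2 scale. SMAD4 gained 0.66 on SMAD3 and 0.31 on SMAD2, and SMAD2 gained 0.35 on SMAD3. SKIL gained 0.62 on SKI, and SMAD7 changed by -0.20 relative to SMAD6. For each of the 6 pairs compared, an exact two-sided permutation test gave p = 0.1 (0.1 after Benjamini-Hochberg adjustment). This is the smallest p that 3 arrays against 3 allow, so the test cannot pass a threshold of 0.05 and these differences are given as a description. The size of the difference on any array depends on the probes.

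**Figure D3:**
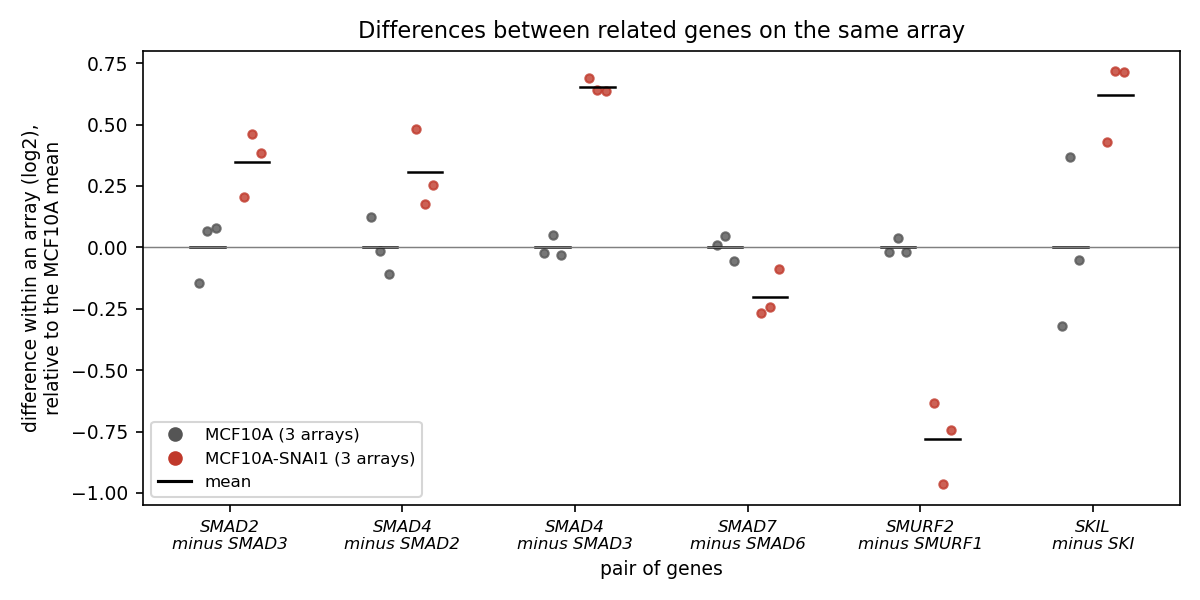
Difference between the log2 values of related genes on the same array (y axis), drawn relative to the mean of the MCF10A arrays, for 3 MCF10A arrays (grey) and 3 MCF10A-SNAI1 arrays (red), with the means as black lines. SMURF2 minus SMURF1 is lower by 0.78 in MCF10A-SNAI1 cells, and SMAD4 minus SMAD3 is higher by 0.66.

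Upstream of the SMADs, 2 ligand genes were called, in opposite directions. Of 10 ligand genes measured, 1 was called higher and 1 lower, beside 5.64% of all genes and 7.61% of those above the median. The median log2 fold change of the ligand genes was 0.02. TGFB2, which encodes a TGFβ ligand, averaged 6.56 ± 0.18 (SD, n = 3) on the control arrays and 10.76 ± 0.028 (SD, n = 3) on those of MCF10A-SNAI1, a rise of 18.3-fold (adjusted p = 5.78e-07 from limma). INHBA, whose product forms activin A, fell 4.52-fold (adjusted p = 2.62e-05 from limma). TGFB1 rose by less than 2-fold, at a log2 fold change of 0.88 (adjusted p = 6.72e-05 from limma). None of 13 receptor genes measured was called, and 4 had an adjusted p below 0.01, 3 higher and 1 lower, beside 23.2% of all genes and 33.4% of those above the median. These included BMPR2 and ACVR2A, type II receptors of the BMP and activin branches, higher by 0.74 and 0.80 on the log2 scale, and the type I BMP receptor BMPR1B at -0.99. BMPR1B lay at the edge of the fold threshold, between -1.05 and -0.90 with any 1 array left out, and went past 2-fold without MCF10A replicate 1 or 3 or without MCF10A-SNAI1 replicate 1 or 2. By the methods' t-test its adjusted p was 0.0124, and that of ACVR2A was 0.0132. The other receptor, ACVR1, a type I receptor at 0.46 (adjusted p = 0.00423 from limma), was above 0.01 by the methods' t-test (0.0210) and when replicate 1 or 2 of MCF10A, or replicate 2 or 3 of MCF10A-SNAI1, was left out, with adjusted p from 0.00592 to 0.0201 over all such omissions. TGFBR1 and TGFBR2, the TGFβ receptors, did not pass the test, with log2 fold changes of 0.20 (adjusted p = 0.0587 from limma) and -0.20 (adjusted p = 0.0744 from limma).

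In the nucleus, 4 of the 12 SMAD cofactor genes measured were called, all higher. In either direction 5.64% of all genes were called, and 7.61% of those above the median. By adjusted p alone, at 0.01, 6 of the 12 passed, all higher, beside 23.2% of all genes and 33.4% of those above the median. The median log2 fold change of the list was 0.30. EP300, a histone acetyltransferase that serves SMAD complexes as a coactivator, rose by 1.62 on the log2 scale (adjusted p = 1.09e-05 from limma). KAT2B, another acetyltransferase, rose by 1.33 (adjusted p = 4.67e-05 from limma). ZEB1 and ZEB2, repressors of E-cadherin that also bind SMADs and are EMT factors in their own right, rose by 2.04 and 1.74. With the mean of its probe sets in place of the brightest, the log2 fold change of ZEB2 was 1.01. TGIF1, a corepressor of SMAD2 and SMAD3, rose by 0.52 (adjusted p = 6.85e-04 from limma), which is less than 2-fold.

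Of 21 genes for the turnover and transport of SMADs and their receptors, which do not include the SMURFs, 1 was called in each direction. Over all genes 5.64% were called, and 7.61% of those above the median. By adjusted p alone, at 0.01, 4 of the 21 were higher and 3 were lower, a share near the 33.4% of genes above the median. The median log2 fold change of the list was -0.16. USP11, a deubiquitinase reported to act on the TGFβ receptor, rose by 1.68 on the log2 scale (standard error 0.085, adjusted p = 1.73e-05 from limma). PMEPA1, which sequesters SMAD2 and SMAD3 and is itself a TGFβ target, fell by 1.47 (adjusted p = 1.13e-05 from limma). The ubiquitin ligases related to the SMURFs did not share one direction. NEDD4L rose by 0.62 on the log2 scale (adjusted p = 7.59e-04 from limma) and WWP1 fell by 0.45 (adjusted p = 0.00139 from limma). USP15, a deubiquitinase that acts on SMADs and on the TGFβ receptor, fell by 0.47 (adjusted p = 0.00172 from limma).

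Genes downstream were called in both directions. Of 19 TGFβ targets measured, 7 were called higher and 2 lower, beside 5.64% of all genes and 7.61% of those above the median, and the median log2 fold change was 0.25. By adjusted p alone, at 0.01, 8 were higher, 5 were lower and 6 did not pass. The share that passed over all genes was 23.2%, and 33.4% of those above the median. Among those called higher were the matrix genes COL3A1 (5.14) and COL1A1 (2.57), CCN2 (2.42), which encodes a matricellular growth factor also called CTGF, and the actin-binding TAGLN (2.40), all as log2 fold changes. SPHK1, a sphingosine kinase gene, was called lower at -1.58 together with PMEPA1. TGFBI, named for its induction by TGFβ, fell by 0.99 (adjusted p = 2.96e-05 from limma) and went just past 2-fold when MCF10A replicate 1 was left out. Of 10 BMP targets measured, 1 was called higher and 1 lower, beside the same 5.64% and 7.61%. The called genes were the HLH inhibitors ID2 at 1.76 (adjusted p = 9.89e-05 from limma) and ID3 at -1.52 (adjusted p = 4.87e-04 from limma). At an adjusted p below 0.01 and any fold, 2 were higher and 2 lower. ID1 was lower by less than 2-fold, at -0.52 (adjusted p = 0.00558 from limma). By the methods' t-test the adjusted p of ID3 was 0.0130 and that of ID1 was 0.0340. With any 1 array left out, the adjusted p of ID1 from limma lay between 0.00643 and 0.0238. It was above 0.01 without 5 of the 6 arrays. In the line where they were lower, ID2 (4.60), ZEB1 (5.70), ZEB2 (4.85), INHBA (5.30) and BMPR1B (4.86) had means below the median of all values. The same held for ID3 (5.93), CDH1 (5.07), EPCAM (5.43), SNAI1 (5.76) and SMAD9 (6.01). Without detection calls it is not known whether all these probe sets were above background there. The sizes of their differences are therefore uncertain. Of the called genes, PMEPA1, ZEB1 and FN1 each stand in more than 1 list. TGFB2 and others of the called genes were also singled out by the study on the same arrays, so these calls are not independent evidence. The article also reports TGFB2 as higher by quantitative PCR. By western blot it reports basal activation of SMAD2/3 protein in MCF10A-SNAI1 cells, which RNA arrays do not measure.

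**Figure D4:**
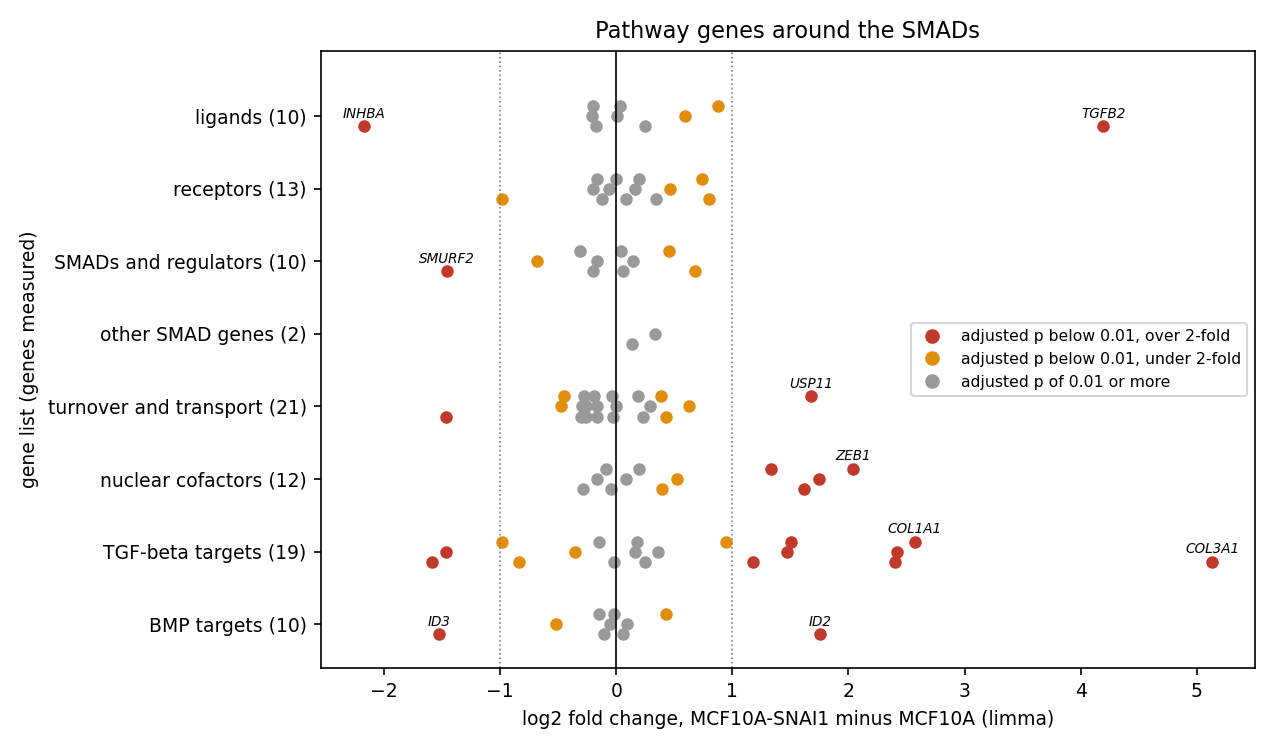
Log2 fold change, MCF10A-SNAI1 minus MCF10A (x axis), of each measured gene of the SMAD members and of the pathway lists (rows), with dotted lines at 2-fold. Genes called at an adjusted p below 0.01 and over 2-fold are red, those below 0.01 but under 2-fold are orange, and the rest are grey. The receptor row has no called gene, the cofactor row has 4 to the right, and the TGFβ target row reaches from -1.58 (SPHK1) to 5.14 (COL3A1).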

How the data were processed

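Total RNA of 3 MCF10A and 3 MCF10A-SNAI1 arrays was measured. The authors deposited 1 table of log2 values for 33297 probe sets. Tools listed in the submitters' processing notes are MAS5, GCOS and version 1.1 of Affymetrix Expression Console. The article's methods name GC RMA normalization in GeneSpring GX. No source used here says which program made the deposited table, and its background correction was not varied. The amount of RNA labelled differs between the article and the labels. Probe sets were named through the platform annotation: 19460 carried 1 symbol, 1754 several and 12083 none. Values were used as deposited. Differences came from limma 3.58.1 in R 4.3.3 (lmFit, eBayes, Benjamini-Hochberg over all probe sets). The fit was tested on simulated data. Arrays give no read depth, and their number limits the precision.

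Alternatives were the methods' t-test, filters above the 20th percentile and the median, quantile normalization, median centring, trended and robust eBayes, the mean of a gene's probe sets, other thresholds, the replicate number as a block and leaving out each array. The members and lists were chosen with earlier results of these data known. Named were all members, SNAI1, CDH1, SMAD5, SMAD9 and, per list and direction, up to 4 called genes with the largest differences. TGFB1, BMPR2, ACVR1, ACVR2A, BMPR1B, TGFBR1, TGFBR2, TGIF1, NEDD4L, WWP1, USP15, TGFBI, ID1, KRT18 and VIM were chosen after their values were seen. Of 99 genes in the lists 92 were analysed, and the others are not reported here.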

Additional observations from a re-analysis of the deposited data

How the results depend on the processing

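Across 15 alternatives, SMURF2 kept its call and SMAD4 kept an adjusted p below 0.01 in every one. SKIL lay between 0.61 and 0.79 on the log2 scale when single arrays were left out and lost its adjusted p below 0.01 without 4 of the 6. By the methods' t-test 2 members, SMAD4 and SMURF2, stayed below it, since SKIL (0.67) was at an adjusted p of 0.0489 and SMURF1 (-0.68) at 0.0115. With probe sets below the median left out, SMAD1 (-0.31) passed at 0.00716, and 5 members were below 0.01. At an adjusted p below 0.05 there were 6 members, with SMAD1 and SMAD3. With a 1.5-fold threshold 3 members were called, adding SMURF1 and SKIL. SMAD6 (-0.04) and SKI (-0.01), neither past the test, turned sign without MCF10A replicate 2. Deviations of same-numbered arrays from their line means had correlations of 0.12, 0.12 and -0.0062. For replicates 1 and 2 of MCF10A the array of the same number correlated best, and for replicate 3 it did not. No source used here says whether the number is a pairing, and so few correlations cannot decide it. With the number as a replicate block, 4 members still had an adjusted p below 0.01, SMURF2 at -1.46.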

Other observations

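SMAD2 had a second probe set of its own. It was dimmer, at a mean of 7.56 in MCF10A and 7.65 in MCF10A-SNAI1 cells, and its log2 fold change of 0.09 (standard error 0.069, adjusted p = 0.464 from limma) also missed the test.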
